A study of Mus musculus with 24 samples.

Results

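The 39 Hox genes are all the genes of the mouse count table whose symbol is Hoxa, Hoxb, Hoxc or Hoxd followed by a number, out of 53465 genes in all. They were followed in 24 tumors of 8 BURP lines, with 3 tumors per line. BURP tumors are transplantable bladder cancers: C57BL/6NTac mice drank 0.1% BBN, a nitrosamine that causes bladder cancer, from 8 weeks of age for up to 36 weeks, and the resulting tumors were passaged under the skin of sex-matched C57BL/6NTac hosts. The 6 lines BURP-12BaSq, BURP-17BaSq, BURP-18BaSq, BURP-21BaSq, BURP-24BaSq and BURP-25BaSq carry the basal and squamous subtype (Ba/Sq), BURP-16SR is called stroma-rich and BURP-19NE neuroendocrine-like. In the study 1 of the 3 BURP-16SR tumors correlated highly with the neuroendocrine-like class and the others with the stroma-rich class. BURP-21BaSq, BURP-24BaSq and BURP-25BaSq came from female mice and the other 5 lines from male mice. Each line descends from 1 donor tumor, so that a difference between lines is also a difference between donor mice, and the host supplies part of the stroma of every tumor.

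Hox genes encode homeodomain transcription factors that give cells along the body axis their positional identity. They lie in 4 clusters in which the order of the genes along the chromosome follows the order in which they are used from head to tail, with paralog 1 at the anterior and paralog 13 at the posterior end. The bladder forms from the hindgut end of the embryo, where posterior genes, Hoxa13 and Hoxd13 in particular, are needed for the cloaca and urogenital sinus to develop, and many adult tissues keep part of the Hox pattern they had in the embryo. On the GRCm38 build the Hoxa cluster holds 11 genes on chromosome 6 (positions 52155590 to 52260880, minus strand), the Hoxb cluster 10 genes on chromosome 11 (96194316 to 96368256, plus strand), the Hoxc cluster 9 genes on chromosome 15 (102921103 to 103036852, plus strand) and the Hoxd cluster 9 genes on chromosome 2 (74668310 to 74765142, plus strand). Positions were grouped by paralog number into 8 anterior genes (paralogs 1 to 3), 15 central genes (4 to 8) and 16 posterior genes (9 to 13).

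The start sites of the genes on which the main differences turned are shown as the 250 bases upstream of the RefSeq start site, read 5′ to 3′ on the strand of the gene. Capitals mark TTTAT and its reverse complement ATAAA, the core of the sequence that caudal-type homeodomain proteins such as Cdx2 bind; the search covered both strands, and overlapping matches were counted separately. Hoxb8 and Hoxb4 belong to the stretch of Hoxb that was high in 2 lines, Hoxa13 was highest in BURP-19NE, and Hoxd13 was high in 2 tumors of BURP-25BaSq. The windows lie at chr11:96281655-96281904 (plus strand), chr11:96318017-96318266 (plus strand), chr6:52260881-52261130 (minus strand) and chr2:74667975-74668224 (plus strand) of GRCm38.p6.
Hoxb8: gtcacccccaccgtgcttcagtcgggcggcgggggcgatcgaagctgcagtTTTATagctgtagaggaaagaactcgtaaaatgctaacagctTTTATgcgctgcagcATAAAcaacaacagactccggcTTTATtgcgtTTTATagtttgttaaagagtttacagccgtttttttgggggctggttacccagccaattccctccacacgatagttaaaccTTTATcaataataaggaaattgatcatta
Hoxb4: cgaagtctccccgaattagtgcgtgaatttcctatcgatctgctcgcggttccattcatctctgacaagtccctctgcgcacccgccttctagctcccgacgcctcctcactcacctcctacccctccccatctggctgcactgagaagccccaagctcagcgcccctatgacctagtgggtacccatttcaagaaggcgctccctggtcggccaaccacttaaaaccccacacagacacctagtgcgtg
Hoxa13: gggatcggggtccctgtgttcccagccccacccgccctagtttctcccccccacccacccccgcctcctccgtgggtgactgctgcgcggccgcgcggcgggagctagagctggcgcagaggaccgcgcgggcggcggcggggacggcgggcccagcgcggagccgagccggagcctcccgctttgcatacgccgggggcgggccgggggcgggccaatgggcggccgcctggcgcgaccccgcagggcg
Hoxd13: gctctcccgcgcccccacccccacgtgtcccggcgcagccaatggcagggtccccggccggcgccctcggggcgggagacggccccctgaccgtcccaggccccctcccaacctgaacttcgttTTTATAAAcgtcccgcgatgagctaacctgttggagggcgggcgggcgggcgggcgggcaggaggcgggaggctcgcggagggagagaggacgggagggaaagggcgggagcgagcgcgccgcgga

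The Hoxb8 window held 6 matches, the highest count of any Hox window given, and 0.393% of the 32851 mouse promoter windows held at least 6. The Hoxd13 window held 2 overlapping matches, the Hoxb4 and Hoxa13 windows held 0, and 37.3% of all windows held at least 1. RefSeq windows were given for 22 of the 39 Hox genes, 24 windows in all, and 9 of these 24 held at least 1 match. This share of 37.5% was near that of all windows. The Hoxa13 window was rich in CG dinucleotides, with 35 where the median window held 6, and 2.97% of all windows held 35 or more. A match describes the letters of the window only, since no binding was measured.

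Total counts ran from 9295708 to 25370320 per tumor, and levels are given as CPM, the usual count scale relative to the TMM-adjusted library total. The floor of detection was set at 3 counts, which corresponded to 0.106 to 0.412 CPM in 23 tumors and to 1.34 CPM in tumor C102-M30 of BURP-25BaSq. The presence threshold used below lies under the floor of that tumor. Its total count was 9778634 and its TMM-adjusted total 2234194, so that the scaling raised all its CPM values. In the Ba/Sq tumors the summed level of 6 squamous and basal markers ran from 7997 to 21090 CPM, against at most 2.23 CPM in BURP-16SR and BURP-19NE. The 4 neuroendocrine markers reported here (Syp, Chga, Insm1 and Neurod1) summed to between 0.337 and 0.681 CPM in BURP-19NE with 2 or 3 of the 4 at 0, and these 4 are too few to judge the label of that line. Markers of fully differentiated urothelium summed to at most 28.1 CPM in 23 tumors and to 205 CPM in C102-M30. The tumor labelled C102-M1 of BURP-25BaSq stood apart from its line and close to BURP-21BaSq over all genes and over the Hox genes, and the calls of BURP-25BaSq and the distances between tumors are given with and without it. These are bulk samples, so that fewer cells of a type and less RNA per cell cannot be told apart.

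Hoxa and Hoxb genes together made up over 50% of the Hox counts in all 24 tumors, and Hoxc genes had the smallest share in 23 of them. The 39 genes together reached 198.8 to 673.7 CPM per tumor with a median of 271.3 CPM. Of this sum the Hoxa genes made up 29.0% to 63.5%, the Hoxb genes 24.8% to 60.8%, the Hoxd genes 3.05% to 32.6% and the Hoxc genes 0.236% to 19.5%. A gene was counted as present in a line when at least 2 of its 3 tumors reached 1 CPM, and 205 of the 312 pairs of gene and line met this.

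**Figure D1:**
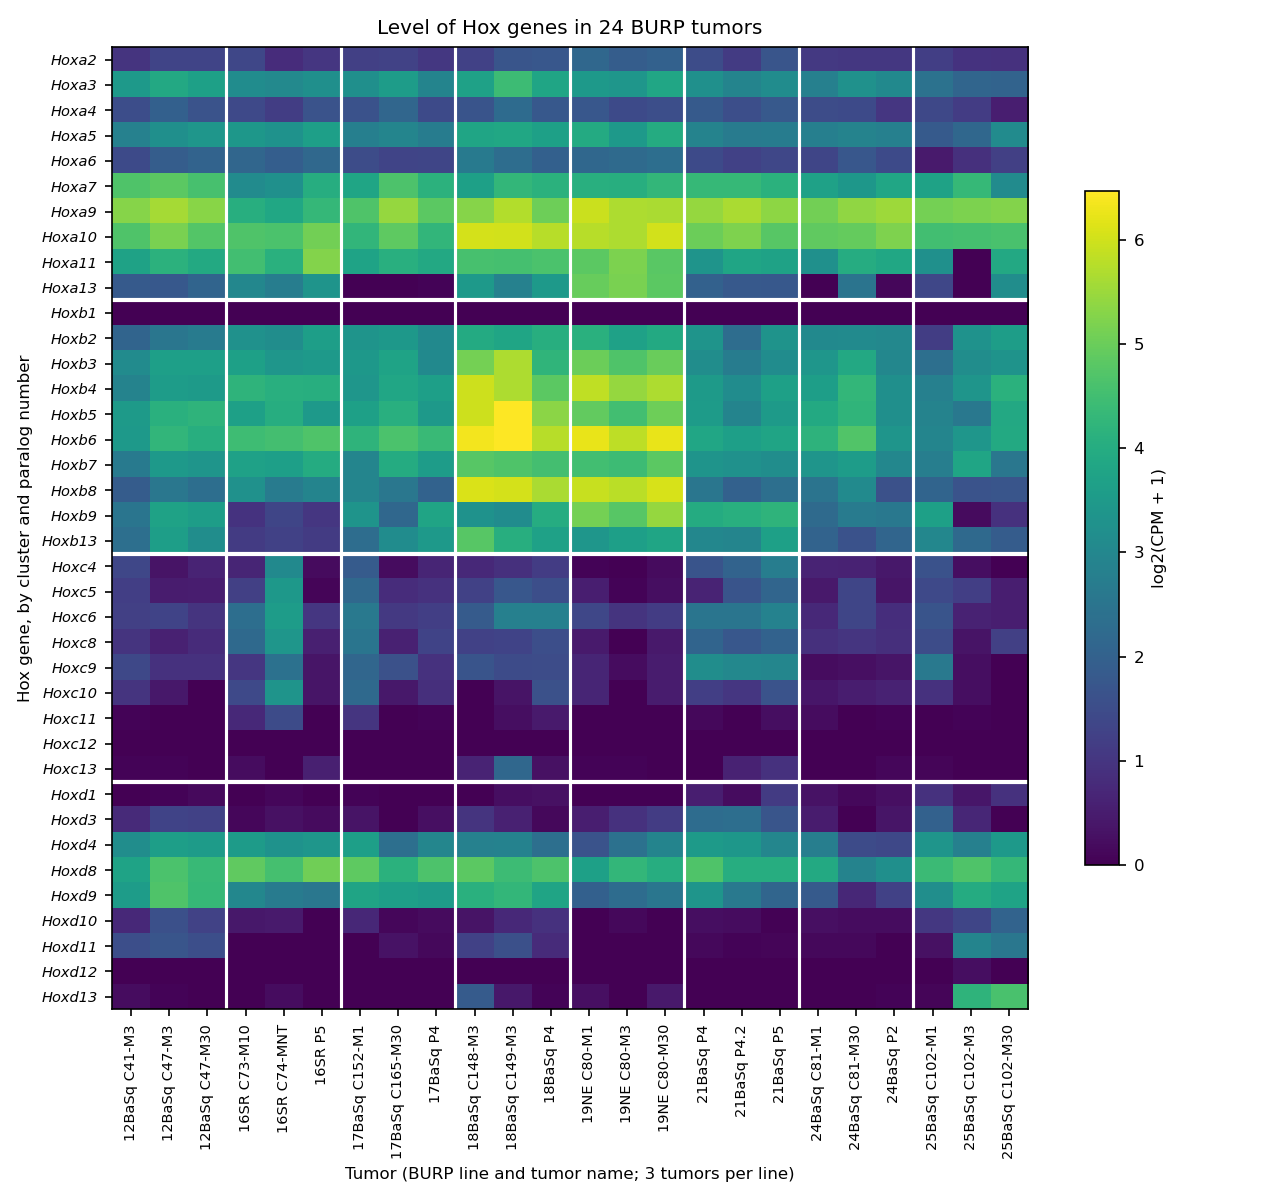
Level of 38 Hox genes (rows, by cluster and paralog number) in each of the 24 tumors (columns, by BURP line) as log2(CPM + 1). The bright block of Hoxb3 to Hoxb8 lies in BURP-18BaSq and BURP-19NE, Hoxd13 is bright in 2 of the 3 BURP-25BaSq tumors, and Hoxb1 and Hoxc12 are at 0 throughout.

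In the Hoxa cluster 7 of the 11 genes (Hoxa3, Hoxa4, Hoxa5, Hoxa7, Hoxa9, Hoxa10 and Hoxa11) were present in all 8 lines, and Hoxa2 and Hoxa6 in 7. Hoxa10, a posterior gene with roles in the genital tract and in blood cells, had the highest level for its length, with a median of 8.86 CPM per kilobase of exon (28.98 CPM) and a range of 18 to 65.1 CPM. Hoxa9, its neighbour and a known leukemia oncogene, followed with 6.92 CPM per kilobase, a median of 38.6 CPM and a range of 13.5 to 60.9 CPM. Hoxa11, which is required for the uterus and the forelimb skeleton, had 6.35 CPM per kilobase, a median of 14.5 CPM, and ranged from 0 to 37.4 CPM. Hoxa13 was present in 6 lines.

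In the Hoxb cluster 8 genes, Hoxb2 to Hoxb8 and Hoxb13, were present in all 8 lines. Per kilobase Hoxb6 was the highest, with a median of 9.62 CPM per kilobase. Its level ran from 6.69 through a median of 18.9 to 87.3 CPM. Hoxb7 followed with 7.08 and Hoxb5 with 5.02 CPM per kilobase, with levels of 4.92, 10.9 and 27.4 CPM and of 5.03, 14 and 87.3 CPM as the lowest, median and highest. Central Hoxb genes such as these are known for their use in the embryonic trunk and in blood-forming cells. Hoxb9 was present in 7 lines. Hoxb1, which patterns the hindbrain, had a count of 0 in all 24 tumors.

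Hoxc genes were the lowest as a group. The highest for its length was Hoxc6, with a median of 0.619 CPM per kilobase and levels of 0.448, 1.49 and 10.8 CPM as the lowest, median and highest. Hoxc8 and Hoxc9 followed with 0.415 and 0.393 CPM per kilobase, at 0 to 9.52 CPM and 0 to 7.99 CPM with medians of 1.175 and 0.955 CPM. Hoxc11 and Hoxc13 reached 1.78 and 3.43 CPM in single tumors and were present in 0 lines, and Hoxc12 was at 0 in every tumor. Hoxc6 was present in 6 lines, Hoxc8 in 5, Hoxc5 and Hoxc9 in 4, Hoxc10 in 2 and Hoxc4 in 1.

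The Hoxd cluster had a high middle and low ends. Hoxd8, Hoxd9 and Hoxd4 were present in all 8 lines, with medians of 7.20, 4.09 and 2.31 CPM per kilobase. Hoxd8 ran from 6.41 through a median of 19.8 to 32.4 CPM, Hoxd9 from 0.636 through 8.74 to 24.7 CPM and Hoxd4 from 1.65 through 6.81 to 11.6 CPM. On the posterior side Hoxd11 was present in 3 lines, Hoxd10 in 2, Hoxd13 in 1 and Hoxd12 in 0, the last having 4 counts in a single tumor. On the anterior side Hoxd3 was present in 2 lines, and Hoxd1 did not pass 1.17 CPM in any tumor.

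Some of these genes overlap others, and the expectation step by which RSEM assigns shared reads then leaves counts that are not whole. The counts of Hoxc5 and Hoxc10 added up to whole numbers in 24 of 24 tumors although those of Hoxc5 alone did so in 22, counting values within 0.015 as whole. Those of Hoxd11 and the overlapping transcript Gm28309 did so in 24 of 24 against 14 for Hoxd11 alone, and so did those of Hoxb2, Hoxb3 and the antisense gene Hoxb3os in 24 against 1 for Hoxb2 alone. Hoxd4 was whole in 0 tumors, and its sum with Hoxd3, the transcript Gm28230 and the noncoding genes Hoxd3os1 and Haglr in 24. The levels of Hoxb2, Hoxb3, Hoxd3 and Hoxd4 in particular are therefore shared with overlapping genes to an extent that the files do not show. The sum of Hoxa11 and the overlapping Hoxa11os was whole in 6 of 24 tumors, against 3 for Hoxa11 alone. Counts of Hoxa2, Hoxa3, Hoxa4 and Hoxa7 were not whole in 10, 23, 22 and 21 tumors, and no sums were tested for them. With which genes Hoxa11 and these Hoxa genes share reads was not resolved.

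Most tumors were nearest in their Hox profile to tumors of their own line. The distance between tumors, taken as the root mean square difference of log2(CPM + 1) over the 39 genes, had a median of 0.555 over 24 pairs of tumors of the same line and of 1.15 over 252 pairs of different lines. Without C102-M1 the medians were 0.519 over 22 pairs and 1.167 over 231 pairs. For 23 of 24 tumors the nearest tumor belonged to the same line. The exception was the tumor labelled C102-M1 of BURP-25BaSq. Its nearest tumor was P4.2 of BURP-21BaSq at a distance of 0.482, and its mean distance to the BURP-21BaSq tumors was 0.601 against 1.36 to the other tumors of its own label. By the mean distance to each line, the own line was nearest for 20 of 24 tumors over the Hox genes and for 22 over all genes. Besides C102-M1, the exceptions over the Hox genes were P5 of BURP-16SR, C152-M1 of BURP-17BaSq and C102-M30 of BURP-25BaSq. The 3 BURP-19NE tumors lay closest together, with mean distances to one another of 0.301 to 0.314.

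Among the 8 lines, edgeR's quasi-likelihood F test found a difference for 31 of the 35 Hox genes that passed the filter on low counts, where 65.7% of all 21383 genes tested were called. Calls were made where the p adjusted by Benjamini and Hochberg was under 0.05 and the line means spanned over 1 on the log2 scale. All 9 tested Hoxb genes and all 7 tested Hoxd genes were called, 9 of 11 Hoxa genes and 6 of 8 Hoxc genes. Among the 6 Ba/Sq lines 23 of 35 were called against 39.4% of all genes, and these included 7 of 9 Hoxb and 7 of 8 Hoxd genes. The median range of line means over the tested Hox genes was 2.92 on the log2 scale among the 8 lines, against 1.80 over all genes tested, and 2.34 against 1.29 among the Ba/Sq lines. Genes with low counts have wide ranges, and where at least 10 counts were required in every tumor 13 Hox genes could be tested, of which 13 were called among the 8 lines and 11 among the Ba/Sq lines, against 63.7% and 39.9% of all genes tested in this way.

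The comparison of BURP-19NE with the 18 Ba/Sq tumors asks how the line classed as neuroendocrine-like differs from the basal and squamous lines. The Hoxa and Hoxb genes that were called were higher in BURP-19NE, and the Hoxc and Hoxd genes that were called were lower. By edgeR's quasi-likelihood test, with the same threshold of adjusted p and an absolute log2 fold change above 1, 12 of 35 Hox genes tested were called, where 24.3% of all genes were called: 6 were higher (9.33% of all genes) and 6 lower (15% of all genes). The 6 that rose were Hoxa2, Hoxa13, Hoxb4, Hoxb6, Hoxb7 and Hoxb9, and the 6 that fell were Hoxc4, Hoxc5, Hoxc8, Hoxd1, Hoxd10 and Hoxd11. The calls of Hoxb6 and Hoxb7 were the least stable, being lost in 18 and 16 of the fits that left out 1 tumor and with other size factors, and that of Hoxb6 also in DESeq2. For 3 of the 12, Hoxa2, Hoxa13 and Hoxb9, the tumors of the groups did not overlap, which held for a call in 14% of all genes. The median log2 fold change was 0.80 over 11 Hoxa genes, 1.18 over 9 Hoxb genes, -2.60 over 7 Hoxc genes and -2.43 over 8 Hoxd genes, against -0.14 over all genes tested.

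Hoxa13, the most posterior gene of its cluster, was at 30.3, 34.9 and 27.6 CPM in the BURP-19NE tumors. In the Ba/Sq tumors it ran from 0 through a median of 2.46 to 10.3 CPM. Every BURP-19NE tumor was above every Ba/Sq tumor, and the means were 30.9 ± 3.69 CPM (SD, n = 3) and 3.18 ± 3.42 CPM (SD, n = 18). The log2 fold change was 3.34 (SE 1.02, edgeR adjusted p = 0.0149). Hoxb9, a posterior gene involved in the thoracic skeleton and the mammary gland, was at 33.5, 26.5 and 42.3 CPM in BURP-19NE, and at 0.134, 8.97 and 17.4 CPM as the lowest, median and highest of the Ba/Sq tumors. Here too the groups did not overlap, with a log2 fold change of 1.95 (SE 0.58, edgeR adjusted p = 0.0134). Hoxa2, an anterior gene of the hindbrain and branchial arches, was at a low level throughout. Its values were 3.49, 2.74 and 2.996 CPM in BURP-19NE against a lowest, median and highest of 0.895, 1.32 and 2.35 CPM in the 18 others, a log2 fold change of 1.14 (SE 0.27, edgeR adjusted p = 0.00305).

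**Figure D2:**
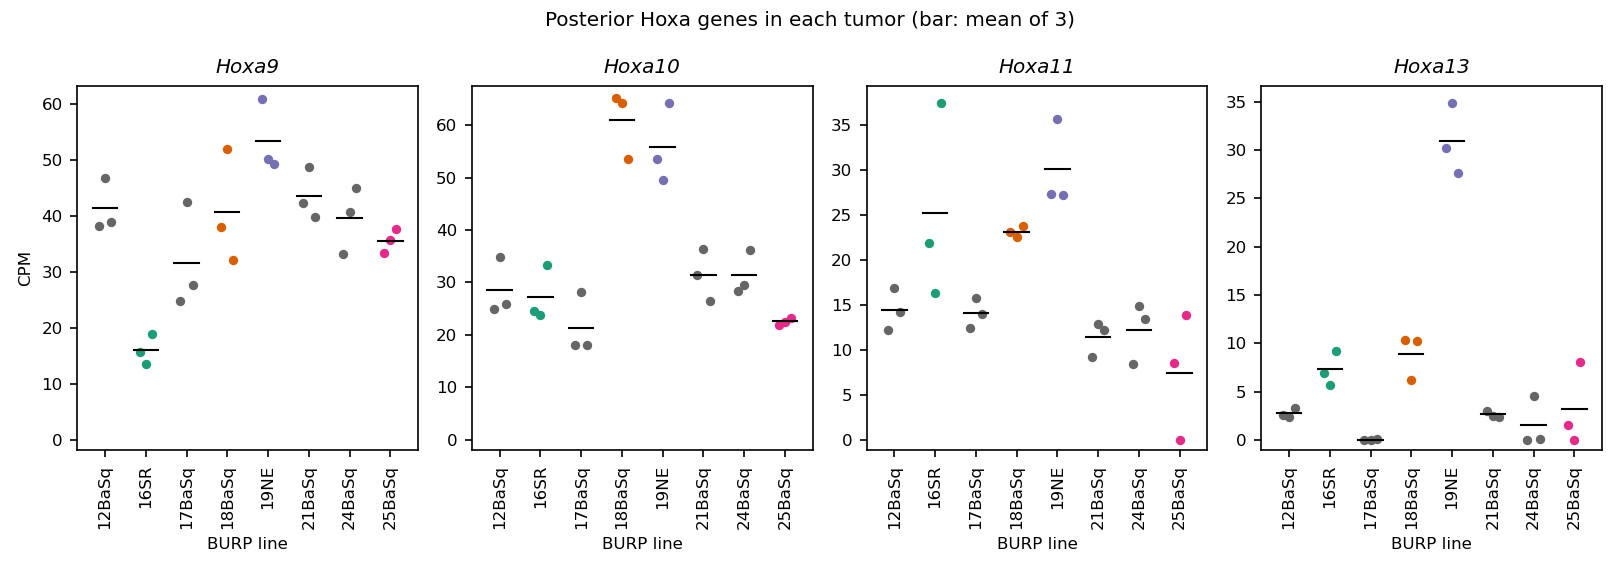
CPM of Hoxa9, Hoxa10, Hoxa11 and Hoxa13 in each tumor by BURP line, with a bar at the mean of 3 tumors. Hoxa13 lies between 27.6 and 34.9 CPM in BURP-19NE and at no more than 10.3 CPM elsewhere, Hoxa9 is lowest in BURP-16SR, and 1 BURP-25BaSq tumor has 0 for both Hoxa11 and Hoxa13.

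Of the other genes at the 5′ end of the cluster, Hoxa11 was at 27.3, 35.6 and 27.2 CPM in BURP-19NE against a highest value of 23.7 CPM in the Ba/Sq tumors, but its log2 fold change of 1.14 (SE 0.58) had an adjusted p of 0.132 in edgeR and it was not called. Hoxa9 and Hoxa10 had log2 fold changes of 0.49 and 0.80, below the size required. The genes that fell were low in every group. Hoxc4 had a mean of 0.0594 CPM in BURP-19NE and 1.29 CPM in the Ba/Sq tumors, Hoxd10 0.0351 and 0.747 CPM. Hoxd1 and Hoxd11 had 0 counts in all 3 BURP-19NE tumors, so that their levels were at least 6.05-fold and 27.2-fold lower, taking 3 counts over the group as the floor. The Ba/Sq lines were uneven here: Hoxd11 had means of 3.91, 2.03 and 1.37 CPM in BURP-25BaSq, BURP-12BaSq and BURP-18BaSq and of 0.0671 to 0.117 CPM in the other 3, and Hoxd1 means of 0.702 and 0.594 CPM in BURP-25BaSq and BURP-21BaSq and at most 0.189 CPM in the others. Fibroblast markers (10 genes) summed to between 1186 and 2039 CPM in BURP-19NE and to between 248 and 10310 CPM in the Ba/Sq tumors, and none of the 10 was at 0 in any tumor. Their part in these differences was not tested. Leaving out 1 BURP-19NE tumor reduced the 12 calls to 3, 3 or 4, with Hoxa13 lost without C80-M3, Hoxa2 lost without C80-M1 and Hoxb9 lost without C80-M1 or without C80-M30. Over all genes 3625 of 21633, 3527 of 21743 and 4038 of 21711 were called without C80-M1, C80-M3 and C80-M30. Summing the counts per line, which makes the comparison 1 line against 6, left 0 Hox calls in edgeR, where 1087 of 25016 genes were called. At an unadjusted p under 0.05 stood 7 Hox genes. All counts of Hox genes at an unadjusted p are given without the share over all genes, so they do not show whether Hox genes exceeded it.

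The comparison of BURP-16SR with the Ba/Sq tumors asks the same of the stroma-rich line. Of 35 Hox genes tested 3 were called, all lower in BURP-16SR, where 19.2% of all genes were called and 8.62% were called as lower. The Hox share of 8.57% was near the share of all genes called as lower and below that of all genes called. The 3 were the posterior genes Hoxa9, Hoxb9 and Hoxb13. Hoxa9 was at 15.6, 13.5 and 18.8 CPM in BURP-16SR and at 24.8, 38.6 and 52.0 CPM as the lowest, median and highest of the Ba/Sq tumors. No tumors overlapped, and the log2 fold change was -1.21 (SE 0.19, edgeR adjusted p = 9.13e-05). Hoxb13, the gene at the posterior end of the Hoxb cluster and a partner of androgen receptor signaling in the prostate, was at 1.19, 1.39 and 1.19 CPM against 2.07, 6.98 and 26.6 CPM, again without overlap. Its log2 fold change was -2.62 (SE 0.69, edgeR adjusted p = 0.00845). Hoxb9 was at 0.932, 1.55 and 1.05 CPM in BURP-16SR, and the Ba/Sq tumors C102-M3 and C102-M30 were lower at 0.134 and 0.895 CPM. Calls without overlap made up 9.47% of all genes. Hoxa9 and Hoxb13 were called whichever single tumor was left out, whereas Hoxb9 was lost without any 1 of the 3 BURP-16SR tumors. With counts summed per line edgeR called 0, with 3 Hox genes at an unadjusted p under 0.05.

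Compared directly, the levels of BURP-16SR were below those of BURP-19NE for a run of Hoxa and Hoxb genes. Of 26 Hox genes tested 10 were called, where 23.6% of all genes were called, and all 10 were lower in BURP-16SR (8.86% of all genes) without overlap of the tumors (23.1% of all genes). They were Hoxa2, Hoxa9 and Hoxa13 and 7 of the 9 tested Hoxb genes, Hoxb2 and Hoxb7 being the 2 not called. Hoxb9 differed most: the values above give a log2 fold change of -4.75 (SE 0.31, edgeR adjusted p = 5.2e-04). Hoxb13 was at 9.51, 11.5 and 12.8 CPM in BURP-19NE, a log2 fold change of -3.07 (SE 0.26, edgeR adjusted p = 9.14e-04). Hoxb8 was at 8.65, 5.50 and 6.58 CPM in BURP-16SR and at 59.5, 54.1 and 66.2 CPM in BURP-19NE, with a log2 fold change of -3.02 (SE 0.22, edgeR adjusted p = 6.78e-04). For Hoxa13 the BURP-16SR tumors had 6.95, 5.73 and 9.23 CPM and the log2 fold change was -1.99, for Hoxa9, at 60.9, 50.2 and 49.25 CPM in BURP-19NE, it was -1.65, and for Hoxb4, at 17.5, 16.02 and 15.5 CPM against 56.2, 42.7 and 49.9 CPM, it was -1.51. The 3 tested Hoxc genes and 3 tested Hoxd genes had median log2 fold changes of 2.35 and 0.96 and gave 0 calls, with 2 of each at an unadjusted p under 0.05. DESeq2 called 13 Hox genes in this comparison, a count given without its share over all genes. Both lines are also part of the comparisons with the Ba/Sq tumors, so the 3 comparisons share tumors.

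Taking each Ba/Sq line against the other 5 showed where the differences within the subtype lay. BURP-18BaSq carried 11 of the 14 Hox calls, all higher than in the other 5 lines, where 10.1% of all genes were called in that comparison and 5.97% as higher. They were Hoxb3, Hoxb4, Hoxb5, Hoxb6, Hoxb7, Hoxb8 and Hoxb13, the Hoxa genes Hoxa5, Hoxa6 and Hoxa10, and Hoxc13. For 9 of them the tumors did not overlap with those of the other lines, which was so for 5.08% of all genes. The median log2 fold change over the 9 tested Hoxb genes was 1.93, against -0.09 over all genes tested.

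Hoxb8 had the largest difference. Its level was 67.2, 65.4 and 48.6 CPM in tumors C148-M3, C149-M3 and P4 of BURP-18BaSq, and the other 15 Ba/Sq tumors ran from 2.03 through a median of 4.04 to 7.47 CPM. With means of 60.4 ± 10.3 CPM (SD, n = 3) and 3.996 ± 1.604 CPM (SD, n = 15), the log2 fold change was 3.91 (SE 0.27, edgeR adjusted p = 2.73e-08). Leaving out any tumor kept it between 3.82 and 4.04, and it was the only one of the 14 calls that was kept when counts were summed per line. Hoxb5 was at 61.5, 87.3 and 39.5 CPM in BURP-18BaSq against a mean of 11.7 ± 4.08 CPM (SD, n = 15), a log2 fold change of 2.44 (SE 0.28). Hoxb6 was at 80.9, 87.3 and 53.3 CPM against 14.98 ± 5.34 CPM (log2 fold change 2.31, SE 0.27), and Hoxb4 at 61.7, 50.1 and 27.7 CPM against 10.8 ± 3.37 CPM (log2 fold change 2.12, SE 0.25). The edgeR adjusted p of these 3 genes was 1.36e-05, 1.36e-05 and 1.56e-05.

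Hoxb3 and Hoxb7, at the anterior end of the called Hoxb genes and inside the stretch, differed less. Hoxb2, next to Hoxb3 on its anterior side, was not called, but its tumors did not overlap either. It was at 14.56, 12.96 and 15.45 CPM in BURP-18BaSq and at 1.237 to 11.19 CPM in the other 15 Ba/Sq tumors. In BURP-19NE Hoxb2 was at 16.33, 12.07 and 14.25 CPM. The edge at Hoxb3 is therefore that of the calls, and Hoxb2 and Hoxb3 share reads as described above. Hoxb3 was at 33.5, 49.4 and 17.8 CPM in BURP-18BaSq against 8.89 ± 2.63 CPM (SD, n = 15), a log2 fold change of 1.93 (SE 0.27, edgeR adjusted p = 9.69e-05), and Hoxb7 was at 26.4, 24.7 and 22.3 CPM against 8.92 ± 2.78 CPM, with a log2 fold change of 1.46 (SE 0.24, edgeR adjusted p = 5.51e-04). Hoxb9, next to Hoxb8 on its posterior side, was at 8.79, 7.89 and 15.1 CPM in BURP-18BaSq, inside the range of 0.134 to 17.4 CPM of all Ba/Sq tumors. Hoxb13, beyond it, was at 26.6, 15.6 and 11.9 CPM against 6.21 ± 3.22 CPM, with a log2 fold change of 1.54 (SE 0.41, edgeR adjusted p = 0.0156) that was lost without C148-M3. BURP-19NE had the same genes at a high level: Hoxb3 at 31.1, 24.7 and 30.5 CPM, Hoxb5 at 28.9, 21.6 and 31.9 CPM, Hoxb6 at 75.2, 55.3 and 74.4 CPM and Hoxb7 at 21.9, 20.4 and 27.4 CPM. With BURP-18BaSq in the Ba/Sq group Hoxb3, Hoxb5 and Hoxb8 were not called for BURP-19NE, with adjusted p of 0.0649, 0.595 and 0.0598 in edgeR.

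**Figure D3:**
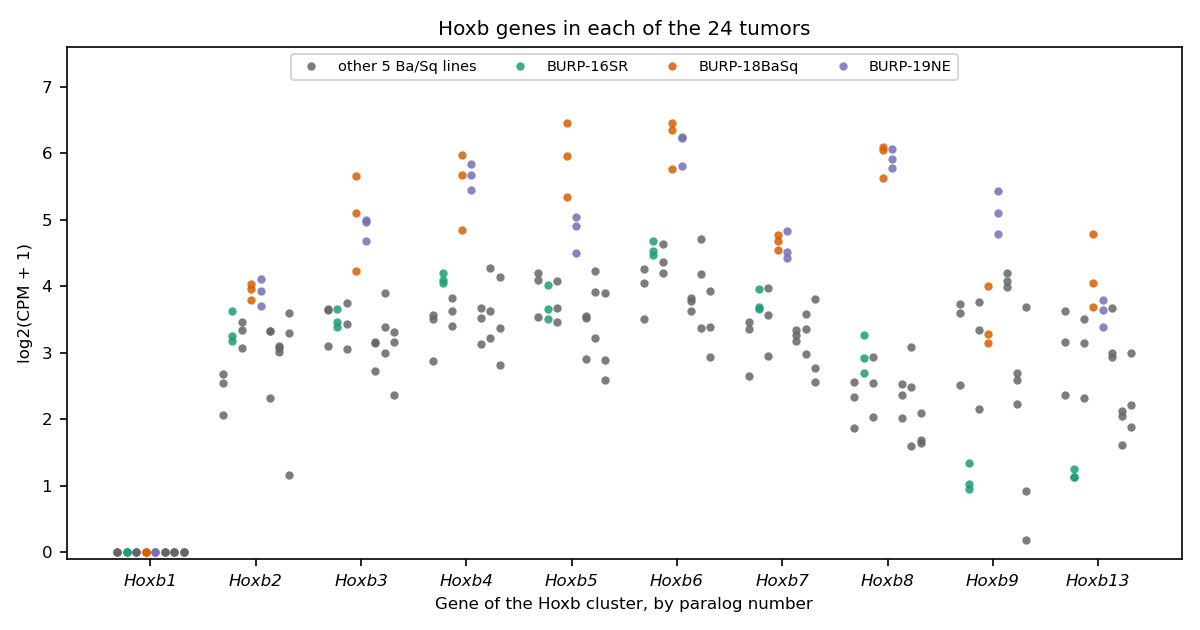
log2(CPM + 1) of the 10 Hoxb genes, by paralog number, with a point for each of the 24 tumors and the lines set side by side within each gene. For Hoxb8 the BURP-18BaSq and BURP-19NE tumors lie between 48.6 and 67.2 CPM and the other 18 tumors at no more than 8.65 CPM, whereas for Hoxb9 BURP-18BaSq lies among the other Ba/Sq lines.

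Outside the Hoxb cluster BURP-18BaSq had Hoxa10 at 65.1, 64.2 and 53.5 CPM against 27.1 ± 5.92 CPM (SD, n = 15), a log2 fold change of 1.18 (SE 0.18, edgeR adjusted p = 2.68e-04). Hoxa5, which acts in lung and gut development, was at 12.9, 13.4 and 11.8 CPM against 6.11 ± 1.69 CPM, and its call was lost without C148-M3. That of Hoxa6 was lost without C148-M3, without C149-M3 and with no filter on low counts. Hoxc13, a gene of hair and nail, was at 0.549, 3.43 and 0.214 CPM, and its call was lost without C148-M3, without C149-M3 and in DESeq2. Cdx2, the intestinal caudal-type gene of the related homeobox list, was at 36.1, 10.04 and 2.94 CPM in C148-M3, C149-M3 and P4 of BURP-18BaSq and at no more than 0.675 CPM in the other 21 tumors, with a log2 fold change of 6.82 (SE 0.86, edgeR adjusted p = 3.82e-05) against the other Ba/Sq lines. BURP-19NE, with Hoxb8 as high as in BURP-18BaSq, had 0 counts of Cdx2 in all 3 tumors. A link between Cdx2 and the Hox levels was not tested. The antisense RNA Hoxb5os was also higher in BURP-18BaSq, at 6.73, 3.35 and 2.67 CPM, with a log2 fold change of 3.15 (SE 0.47, edgeR adjusted p = 2.2e-04). The counts of Hoxb5 and Hoxb6 were whole in all 24 tumors. The kit marks the strand, and the setting used in counting is not given in the sources used here.

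BURP-24BaSq differed in the Hoxd cluster, with 2 genes called, both lower, where 1.65% of all genes were called and 0.707% as lower. Calls without overlap, of which Hoxd9 was 1, made up 1.33% of all genes. Hoxd9 was at 2.55, 0.636 and 1.36 CPM in C81-M1, C81-M30 and P2 against 3.29, 12.5 and 24.7 CPM as the lowest, median and highest of the other 15 Ba/Sq tumors. All BURP-24BaSq tumors were below all others, and the log2 fold change was -3.06 (SE 0.56, edgeR adjusted p = 0.00617). Hoxd8 was at 14.2, 6.41 and 8.35 CPM, overlapping the range of 12.5 to 27.8 CPM of the others, with a log2 fold change of -1.13 (SE 0.27, edgeR adjusted p = 0.0276). Both calls were lost without C81-M30 or without P2. The median over the 8 tested Hoxd genes was -2.31 against -0.11 over all genes tested, and the summed Hoxd level of 9.22 to 23.4 CPM was the lowest of the 8 lines by mean.

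BURP-25BaSq had 1 call, Hoxd13, where 0.273% of all genes were called and 0.263% as higher. Hoxd13, the most posterior gene of its cluster and a gene of the digits, hindgut and genital tubercle, was at 17.6 and 23.3 CPM in C102-M3 and C102-M30 and at 0.0562 CPM in the tumor labelled C102-M1. In the other 15 Ba/Sq tumors it did not exceed 2.61 CPM, and most were at 0. The log2 fold change was 6.43 (SE 1.26, edgeR adjusted p = 0.0305) with C102-M1 and 7.03 (edgeR adjusted p = 0.00551) without it, and the call was lost in DESeq2 (adjusted p = 0.224) and when any 1 of 11 tumors was left out, among them C102-M3 and C102-M30. The level in C102-M30 rests on 52 counts. Hoxd11, nearby in the cluster, was at 6.59 and 4.92 CPM in C102-M3 and C102-M30 and at 0.225 CPM in C102-M1, where the other Ba/Sq tumors reached 2.26 CPM. Hoxd10 was at 1.56, 3.13 and 1.07 CPM in these 3 tumors, within or above the range of up to 1.96 CPM of the others. Neither was called with or without C102-M1, and the log2 fold changes with it were 2.41 and 1.78. Hoxd12, between Hoxd11 and Hoxd13, had 4 counts in C102-M3 and 0 elsewhere. Without C102-M1 a second gene was called, Hoxb9, where 1.5% of all genes were called. It was at 0.134 and 0.895 CPM in C102-M3 and C102-M30, no more than the floor of 3 counts in either, at 11.9 CPM in C102-M1 and at 3.44 to 17.4 CPM in the other 15 Ba/Sq tumors. Its log2 fold change was -5.03 (edgeR adjusted p = 0.0132) without C102-M1 and -1.12 (edgeR adjusted p = 0.674) with it.

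**Figure D4:**
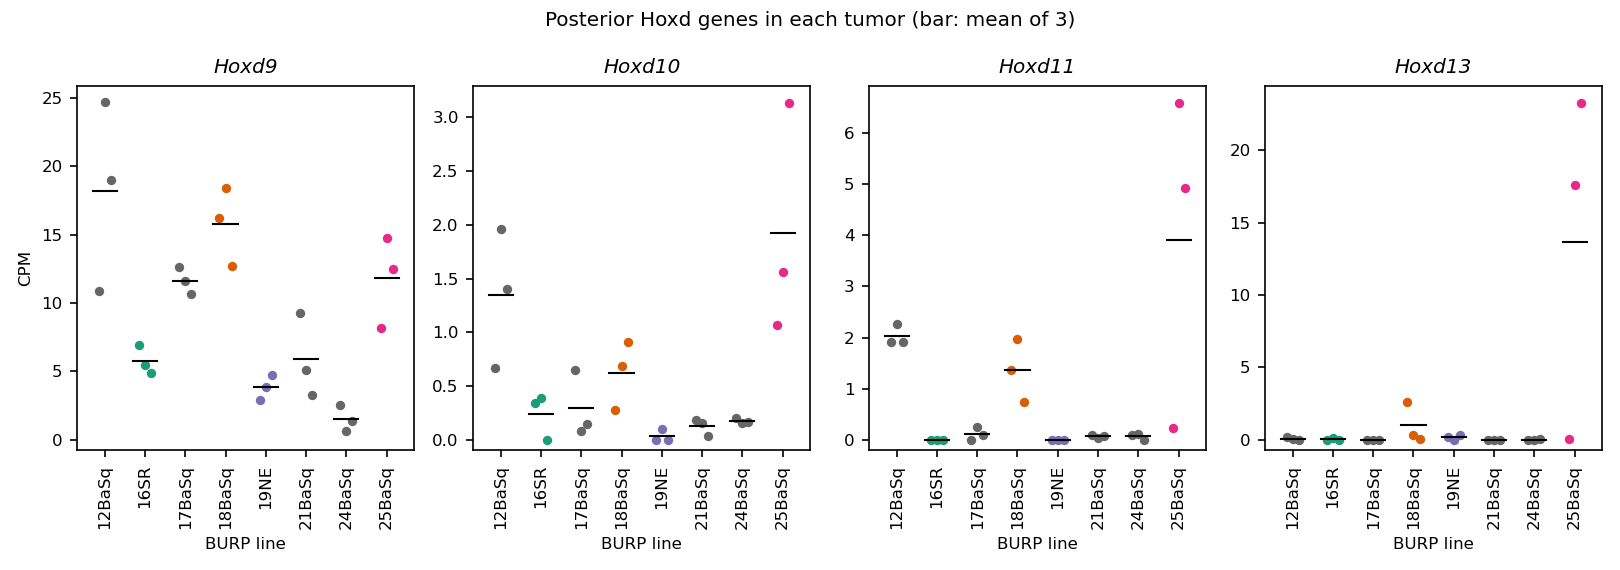
CPM of Hoxd9, Hoxd10, Hoxd11 and Hoxd13 in each tumor by BURP line, with a bar at the mean of 3 tumors. Hoxd13 is at 17.6 and 23.3 CPM in 2 BURP-25BaSq tumors and at no more than 2.61 CPM in the other 22 tumors, and Hoxd9 is lowest in BURP-24BaSq.

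At the posterior end of the Hoxa cluster Hoxa13 and in 1 tumor Hoxa11 were at or near 0 in some Ba/Sq tumors, and these genes were picked out after their values were seen. In C102-M3 of BURP-25BaSq Hoxa11 and Hoxa13 both had 0 counts, where 3 counts would have been 0.134 CPM, while C102-M30 had 13.9 and 8.06 CPM. The antisense gene Hoxa11os had 3 counts in C102-M3 and was at 11.6 CPM in C102-M30. On either side of this gap, Hoxa10 was at 22.4 CPM in C102-M3 and 23.3 CPM in C102-M30, and the neighbouring gene Hibadh at 22.0 and 35.8 CPM. Hoxa13 was also at 0, 0 and 0.0493 CPM in the 3 BURP-17BaSq tumors, where Hoxa11 was at 12.4, 15.8 and 13.9 CPM. In BURP-24BaSq it was at 0 and 0.0827 CPM in C81-M1 and P2 and at 4.56 CPM in C81-M30, so that tumors of 1 line differed.

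BURP-12BaSq, BURP-17BaSq and BURP-21BaSq had 0 Hox calls in edgeR against the other 5 lines, where 4.59%, 1.07% and 0.0195% of all genes were called. At an unadjusted p under 0.05 stood 3, 4 and 7 Hox genes. In BURP-21BaSq Hoxc9 was at 7.99, 7.15 and 6.76 CPM against at most 5.12 CPM in the other Ba/Sq tumors, a highest value that belonged to the tumor labelled C102-M1. Its log2 fold change was 2.32 (SE 0.71) with an adjusted p of 0.247 in edgeR. With C102-M1 counted as BURP-21BaSq, an alternative chosen after seeing the data, 3 Hox genes were called in that line, Hoxc4, Hoxc9 and Hoxd3, where 1.62% of all genes were called.

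The Hoxc genes were highest in tumors of different lines. Their summed level was 53.0 CPM in C74-MNT of BURP-16SR, 20.01, 21.2 and 28.2 CPM in the 3 BURP-21BaSq tumors and 24.03 CPM in C152-M1 of BURP-17BaSq. Within a line the values spread widely: the other BURP-16SR tumors, C73-M10 and P5, had 13.2 and 2.80 CPM, and the other BURP-17BaSq tumors 4.87 and 6.02 CPM. Hoxc6 was at 4.07, 10.8 and 1.05 CPM in C73-M10, C74-MNT and P5, Hoxc8 at 3.65, 9.52 and 0.490 CPM and Hoxc9 at 1.02, 4.33 and 0.280 CPM. Fibroblast markers were also highest in C74-MNT and C152-M1 within these lines, with sums of 7813, 20770 and 630 CPM in C73-M10, C74-MNT and P5, and of 10310, 370 and 3321 CPM in C152-M1, C165-M30 and P4 of BURP-17BaSq. In BURP-21BaSq they were at 1256 to 3000 CPM, and in BURP-18BaSq tumor P4 at 6065 CPM with a Hoxc sum of 15.6 CPM against 16.5 CPM in C149-M3 with 639 CPM of markers. The part of fibroblasts in the Hoxc level was not tested. Against the Ba/Sq tumors, the 8 tested Hoxc genes of BURP-16SR had a median log2 fold change of 1.33 and 0 calls in edgeR, with 4 at an unadjusted p under 0.05.

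**Figure D5:**
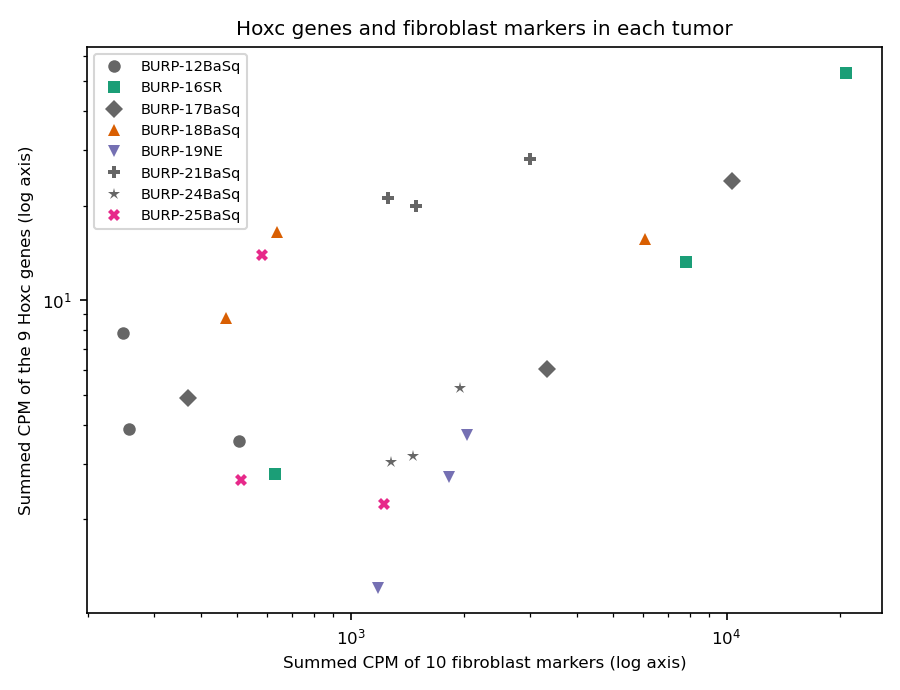
Summed CPM of the 9 Hoxc genes (vertical log axis) against the summed CPM of 10 fibroblast markers (horizontal log axis) in each of the 24 tumors, with a symbol for each line. C74-MNT of BURP-16SR is the highest on both axes, at 53.0 and 20770 CPM, while the BURP-21BaSq tumors reach 20.01 to 28.2 CPM of Hoxc at 1256 to 3000 CPM of markers.

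The study compared male with female Ba/Sq lines, and here 3 of 31 tested Hox genes were called, all Hoxb genes that were higher in the male lines, where 2.31% of all genes were called and 1.09% as higher. Hoxb8 was at 2.67, 4.88 and 67.2 CPM as the lowest, median and highest of the 9 male tumors and at 2.03, 3.26 and 7.47 CPM of the 9 female tumors (log2 fold change 2.62, SE 0.68, edgeR adjusted p = 0.0315). Hoxb5 was at 10.01, 16.1 and 87.3 CPM against 5.03, 10.6 and 17.8 CPM (log2 fold change 1.55), and Hoxb6 at 10.3, 19.7 and 87.3 CPM against 6.69, 12.8 and 25.1 CPM (log2 fold change 1.46). The sexes overlapped for all 3 genes. All tumors of a line share a sex, and all 3 calls were lost without BURP-18BaSq, when the log2 fold changes of Hoxb5, Hoxb6 and Hoxb8 were 0.36, 0.36 and 0.17. The 3 calls were also lost without BURP-21BaSq, without BURP-24BaSq and without BURP-25BaSq. Summing counts per line left 0 calls in edgeR, with 5 Hox genes at an unadjusted p under 0.05. The calls therefore rest on BURP-18BaSq, and a difference by sex in these genes was not shown apart from that line.

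Hox proteins bind DNA together with the TALE homeodomain proteins Pbx, Meis and Pknox, and 8 of the 9 genes of this list were tested. Meis1 ran from 25.9 to 343 CPM and Meis2 from 25.5 to 356.7 CPM over the 24 tumors. In BURP-19NE 2 were called, against 24.3% of all genes, both lower than in the Ba/Sq tumors: Meis3 by a log2 fold change of -3.47 and Pknox2 of -4.25. In BURP-16SR 0 were called against the Ba/Sq tumors in edgeR, and among the members called in the comparison with BURP-19NE, Meis1 had a log2 fold change of -1.23 and Meis3 of 4.40. No member was called for a single Ba/Sq line or for sex.

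Polycomb proteins keep Hox clusters silent and Trithorax proteins keep them active. Of 24 Polycomb genes 3 were higher in BURP-19NE than in the Ba/Sq tumors (Phf19, Rnf2 and Phc3, by 1.94, 1.1 and 1.295 on the log2 scale) and 1 lower, Kdm6b, a demethylase that removes the Polycomb mark, with 26.4, 17.7 and 26.1 CPM where the 18 others had 83.2 to 272 CPM (log2 fold change -2.75, SE 0.28, edgeR adjusted p = 1.7e-07). The 4 of 24 called in BURP-19NE are a smaller share than the 24.3% of all genes called in that comparison. In BURP-16SR 2 of 24 were called, Phf1 and Phf19, both higher than in the Ba/Sq tumors, where 19.2% of all genes were called. Of 14 Trithorax genes 2 were called in BURP-19NE, Kmt2c and Dot1l, lower by -1.03 and -1.20, again a smaller share than over all genes, and 0 in BURP-16SR. Neither list had a call for a single Ba/Sq line or for sex, and the medians over both lists stayed between -0.25 and 0.23 in all of these comparisons.

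Of 46 listed noncoding genes inside or beside the clusters, 15 were tested between BURP-19NE and the Ba/Sq tumors and 5 were called, against 24.3% of all genes. Hottip, a noncoding RNA at the Hoxa13 end of its cluster, rose by 2.55 on the log2 scale at a level of only 0.474 to 0.547 CPM in BURP-19NE, and 9530018H14Rik, between Hoxa11 and Hoxa13, rose by 3.57 (5.22, 5.27 and 3.86 CPM in BURP-19NE). Gm53, a long noncoding RNA gene at chr11:96251105-96264868 between Hoxb13 and Hoxb9, fell by 7.01 on the log2 scale (SE 1.83, edgeR adjusted p = 0.0056), and Gm11539 by 3.18, at no more than 1.04 CPM in any tumor. The values of Gm53 fell into high and low tumors: 10.5 to 50.6 CPM in all tumors of BURP-12BaSq, BURP-17BaSq, BURP-21BaSq and BURP-24BaSq and 23.1 CPM in the tumor labelled C102-M1, against at most 1.86 CPM in BURP-16SR, 0.227 CPM in BURP-19NE, 5.88 CPM in BURP-18BaSq and 0 in C102-M3 and C102-M30. It was also called as lower in BURP-16SR, with a log2 fold change of -4.88. In BURP-18BaSq 3 of 14 tested noncoding genes were called as higher (Hoxb5os, Gm11536 and Hoxaas2), against 5.97% of all genes. Of 11 tested 4 were lower in BURP-16SR than in BURP-19NE (9530018H14Rik, Hoxaas2, Hoxb5os and Gm15050), against 8.86% of all genes. The 18 protein-coding neighbours outside the clusters moved less. Of 14 tested, Hibadh and Calcoco1 rose in BURP-19NE by 1.27 and 1.65 on the log2 scale, where 9.33% of all genes were called as higher. Hibadh rose in BURP-18BaSq by 1.06, where 5.97% of all genes were called as higher. In BURP-16SR 0 were called against the Ba/Sq tumors in edgeR, where 19.2% of all genes were called. Of the 9 related homeobox genes 2 reached the filter, and Cdx2 in BURP-18BaSq was the only call for a single line.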

How the data were processed

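RNA of 24 BURP tumors was sequenced from libraries made with rRNA depletion and a kit that marks the strand. According to the submitters' processing notes the tools were CASAVA 1.8.2, STAR 2.6.0a and RSEM 1.3.1, and the values the authors deposited are RSEM expected counts per gene, of which 12.5% were not whole. The strand setting of RSEM, and whether any sequenced tumor came from a cisplatin-treated mouse, are not given in the sources used here. Counts were rounded, and 99.8% of the gene IDs matched GENCODE M21 (GRCm38). Promoter sequences were taken from RefSeq (GRCm38.p6).

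Genes were filtered with filterByExpr, scaled by TMM and tested with the quasi-likelihood test of edgeR 4.0.16 (R 4.3.3, limma 3.58.1) over all genes, and DESeq2 1.42.0 was an alternative. Genes were called where the Benjamini-Hochberg adjusted p was under 0.05 and the log2 fold change exceeded 1 in size. The floor was 3 counts, and floors cover counting error only. Totals per tumor ran from 9295708 to 25370320 counts. Lines were taken from the sample titles, and subtype and sex from the study. Tumors of a line grew in separate hosts or passages but descend from 1 donor, so p-values measure the spread between these tumors. The scripts were tested on simulated data.

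Values per tumor were given for up to 6 called Hox genes without overlap in each direction and comparison, for the 3 Hox genes of each cluster with the highest median per kilobase, and for those called between the sexes. Other genes named with values were chosen after their values were seen, except called members of the lists (TALE cofactors, Polycomb, Trithorax, noncoding RNAs, neighbours, related homeobox genes). Values of some genes of the clusters and lists are not reported here, which leaves 4 neuroendocrine markers. The members and lists were chosen with earlier results of these data known. Alternatives were another scaling, other filters, 1 fit of all tumors, counts summed per line and leaving out each tumor.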

Additional observations from a re-analysis of the deposited data

Results flagged for a closer look

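Hoxb8 in the 9 female Ba/Sq tumors was flagged because 1 tumor lay far from the others. C81-M30 of BURP-24BaSq had 7.47 CPM and the next tumor 4.77 CPM, a gap of 0.496 of the whole range where the critical value of Dixon's test for 9 samples is 0.493. Chance flags about 1 in 20 groups, and 6 groups were examined. The male against female call of Hoxb8 was kept without this tumor.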

How the results depend on the processing

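Where at least 10 counts were required in every tumor, which leaves 13 Hox genes, the calls became 1 for BURP-19NE against the Ba/Sq tumors (12 in the report), 1 for BURP-16SR (3), 13 among the 8 lines (31) and 11 among the 6 Ba/Sq lines (23). Over all genes 2001 of 10832 were called for BURP-19NE in this way, and 63.7% and 39.9% among the 8 and the 6 lines. In 1 fit of all 24 tumors by line the calls became 10 for BURP-16SR, 5 for sex (3) and 38 for the single Ba/Sq lines (14). With counts summed per line edgeR called 0 Hox genes for BURP-19NE, 0 for BURP-16SR, 0 for sex and 1 for the single lines, with 7, 3, 5 and 21 at an unadjusted p under 0.05. The share of all genes at that unadjusted p is not given. DESeq2 called 6 for sex. The calls over all genes changed with the setting too. For BURP-19NE they were 6152 of 21383 in 1 fit of all tumors and 1087 of 25016 with counts summed per line, against 5108 of 20995 in the report. Without C80-M1, C80-M3 or C80-M30 they were 3625 of 21633, 3527 of 21743 and 4038 of 21711. The other counts of Hox calls in this section are given without the share over all genes. Leaving out 1 tumor gave 3 to 14 calls for BURP-19NE, with 3, 3 and 4 without C80-M1, C80-M3 and C80-M30, and 2 to 5 for BURP-16SR, with 5 without P5 of that line or C152-M1 and 2 without C73-M10 or C74-MNT. It gave 9 to 15 for BURP-16SR against BURP-19NE, 29 to 33 among the 8 lines, 20 to 27 among the Ba/Sq lines and 9 to 15 for the single lines, with 9 without C148-M3. For sex it gave 0 to 5, with 0 without any BURP-18BaSq tumor, C81-M1, P2, C102-M1 or P4.2 of BURP-21BaSq, 1 without C102-M30 or P5 of BURP-21BaSq and 5 without P4 of BURP-17BaSq. Leaving out a whole line gave 0 to 6 calls for sex, with 0 without BURP-18BaSq or BURP-24BaSq and 6 without BURP-12BaSq or BURP-17BaSq. With C102-M1 counted as BURP-21BaSq, an alternative chosen after seeing the data, the single lines gave 18 calls, and Hoxd13 in BURP-25BaSq had a log2 fold change of 7.10. Without C102-M1 the calls were 9 for BURP-19NE, 3 for BURP-16SR, 31 among the 8 lines and 27 among the Ba/Sq lines. The 205 pairs of gene and line counted as present became 229 at 0.5 CPM, 167 at 2 CPM and 204 without TMM. The causes were not tested. None of the results changed direction under these alternatives. No paired analysis was made because the labels give no pairing of tumors between lines. Depth limits the genes near the floor. The high floor of C102-M30 follows from its TMM-adjusted total of 2234194, where its total count was 9778634.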
